A study of Canis lupus familiaris with 6 samples.

Results

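Kinesins, the motor proteins that move along microtubules, were followed across the RNA-Seq libraries of canine keratinocytes. Members were taken by gene symbol alone (KIF followed by a number and an optional letter, or KIFC1 to KIFC3), which gave 41 of the 35993 genes in the gene table. The rule reads no expression value, but the family itself was selected on earlier log2 fold changes and p-values of this same comparison, so the values and p-values below describe the members and support nothing further. Of the 41 kinesins, 12 were grouped as mitotic, 13 as transport and 16 as other kinesins. CPEK cells, a keratinocyte line from canine epidermal progenitors labelled as wild type, were exposed either directly to cold atmospheric microwave plasma (dCAMP, 30 s, 3 libraries) or to the gas without plasma (gas control, 3 libraries). Fresh medium was given to the cells after 15 min, and RNA was taken 24 h later. The study addressed how dCAMP acts on wound healing by these cells. The labels do not say whether the 3 libraries of a group came from separate cultures, so the p-values measure the spread between these libraries, which may be technical, and 1 cell line stands for the canine keratinocyte.

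Kinesins hydrolyse ATP to walk on microtubules, mostly towards the plus end. Mitotic kinesins are made when cells approach division: they push the spindle poles apart, move and align chromosomes, trim microtubule ends and build the midzone at which the cell divides. Transport kinesins carry vesicles, mitochondria, lysosomes and signalling complexes through the cytoplasm, or proteins into the cilium, and several of them are best known from the axons of neurons. In keratinocytes the mitotic members mark dividing basal cells.

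The libraries differed in ways that touch every result below. Gas 1, 2 and 3 held 45167120, 53166657 and 54082634 counts in all, and dCAMP 1, 2 and 3 held 46479197, 43084921 and 44692385. When gene counts were compared pairwise by chi-square, the statistic over its degrees of freedom (about 1 if only sampling differed) ran from 86.3 to 323 for gas pairs but from 6.52 to 10.2 for dCAMP pairs. Gas 1 held 0.509% of its counts on mitochondrial genes, against 1.42% in gas 2, 2.35% in gas 3 and 2.19% to 2.23% in the dCAMP libraries. Relative to the dCAMP mean, the median log2 CPM (counts scaled to the normalized library size) of the longest genes, of 4 equal groups by length, was −0.30 in gas 1, −0.19 in gas 2 and −0.032 in gas 3, and that of the shortest group was 0.18, 0.11 and 0.024. Gas 1 therefore stood furthest from the other libraries, and gas 3 stood nearest to the dCAMP libraries. Keratinocyte identity was checked with 9 marker genes (KRT5, KRT14, KRT15, TP63, DSG3, COL17A1, ITGA6, ITGB4 and CDH1), which were all expressed and summed to 58127, 55739 and 48741 CPM under gas against 48325, 47886 and 45477 CPM under dCAMP, with KRT5 as the most abundant.

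Kinesin expression was first ordered by FPKM, which allows genes of different length to be compared. Over the 6 libraries, 14 members had a mean of at least 10 FPKM and 14 had a mean under 1 FPKM. KIF1C, a kinesin that carries vesicles and integrins, had the highest level, with 62.5 ± 10.9 FPKM (SD, n = 3) under gas against 55.4 ± 1.68 (SD, n = 3) under dCAMP. KIFC1, the minus-end motor that focuses spindle poles, came second, with 50.1 ± 7.94 FPKM (SD, n = 3) under gas against 33.8 ± 4.41 (SD, n = 3) under dCAMP. The midzone motor KIF23, the conventional cargo motor KIF5B, the chromosome-arm motor KIF22 and the spindle motor KIF11 followed. KIF2A, which shortens microtubules from their ends, had the highest level of the other kinesins, with 19.0 ± 8.72 FPKM in the gas control and 27.5 ± 0.841 after dCAMP (SD, n = 3 each). The levels of all 12 mitotic kinesins summed to 216, 237 and 253 FPKM in gas libraries 1, 2 and 3 and to 211, 242 and 213 FPKM in dCAMP libraries 1, 2 and 3, so that the groups overlapped. The 13 transport kinesins summed to 132, 132 and 148 FPKM under gas against 155, 156 and 153 FPKM under dCAMP, and the groups did not overlap. This separation came from KIF5B, without which the other 12 summed to 118, 107 and 101 FPKM under gas against 109.5, 107 and 105 FPKM under dCAMP, with overlapping groups. KIF1A, KIF5A, KIF5C and KIF17, transport kinesins known from neurons or cilia, all had under 1 FPKM in every library.

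**Figure D1:**
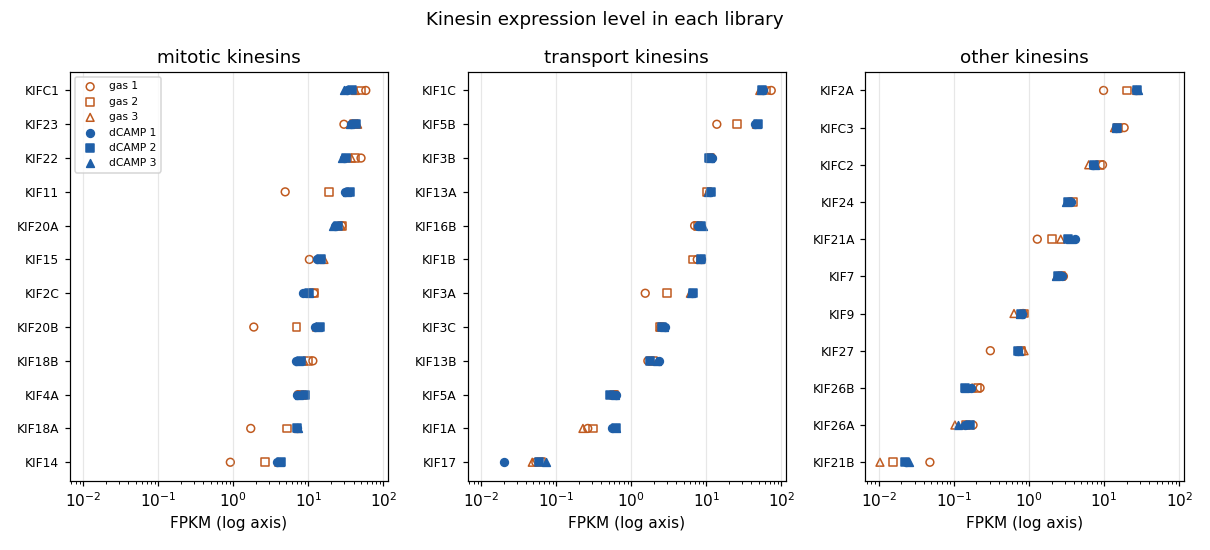
FPKM (log axis) of the 35 kinesins that passed the filter on low counts, with open symbols for gas libraries and filled symbols for dCAMP libraries. KIF1C and KIFC1 lie at the top of their groups, and KIF11, KIF20B, KIF18A, KIF14, KIF3A and KIF5B have gas 1 far to the left of the other libraries.

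Expression in dCAMP-treated cells was compared with the gas control by edgeR's quasi-likelihood test over the 14708 genes that passed a filter on low counts. Log2 fold changes are dCAMP over gas, so that a value below 0 is a lower level after dCAMP, and values given in threes stand for libraries 1, 2 and 3 in that order. Of the 41 kinesins, 35 passed the filter: 12 mitotic, 12 transport and 11 other. KIF6, KIF25 and KIF2B were listed at 0 in every library, which allows up to 3 counts in each and covers counting error only. KIF5C, KIF12 and KIF19 had at most 19 counts in any library and were not tested. With Benjamini-Hochberg adjustment 0 of the 35 had an adjusted p under 0.05, as did 0 of all genes tested (0.00%), and 7 kinesins had an unadjusted p under 0.05 against 20.7% of all genes. Estimates lay below 0 for 17 kinesins and above 0 for 18, while 47.6% of all genes tested had estimates below 0. Of the 7, KIF1A and KIF21A were higher after dCAMP (6.81% of all genes), and KIF22, KIFC1, KIF18B, KIF20A and KIF26B were lower (13.9% of all genes). The number of higher kinesins was 1 without dCAMP 1 (2.48% of all genes in that fit) and 8 without gas 3 (23.8% of all genes, with 37 kinesins tested). The number of lower ones was 3 without gas 2 (5.82% of all genes), without dCAMP 1 (5.75%) or without dCAMP 3 (4.70%), and 9 without gas 3 (25.5%). There were 2 higher and 4 lower kinesins without dCAMP 2 (3.04% and 6.57% of all genes) and also without gas 1 (8.75% and 11.8%). Higher kinesins numbered 2 without dCAMP 3 (2.16% of all genes) and 2 without gas 2 (2.43%). Complete separation of the dCAMP from the gas values was seen in 8 of the 35 kinesins (22.9%), against 39.9% of all genes tested, with 3 higher (19.0% of all genes) and 5 lower. In DESeq2, which gave 295 genes (1.45%) an adjusted p under 0.05, 2 of 38 kinesins passed, namely KIF1A (adjusted p = 0.000159) and KIF22 (adjusted p = 0.0307).

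Among the mitotic kinesins, 4 were lower in every dCAMP library than in any gas library (20.9% of all genes tested showed this): KIF22, KIFC1, KIF18B and KIF20A. KIF22 (gene ID 489938; chromosome 6, 17853190 to 17865386 of CanFam3.1), a chromokinesin that pushes chromosome arms towards the spindle equator, had 118, 101 and 90.9 CPM in gas 1, 2 and 3 against 71.4, 74.7 and 68.0 CPM in dCAMP 1, 2 and 3. All 3 dCAMP values lay below the lowest gas value, with the highest gas value in gas 1. Its log2 fold change was −0.53 ± 0.118 (SE, adjusted p = 0.221 from edgeR), a level 1.45-fold higher in the gas control. KIFC1 (gene ID 607916; chromosome 12, 2808374 to 2821203) had 151, 134 and 117 CPM under gas against 89.0, 105 and 85.3 CPM under dCAMP. The groups were again separate, by 117 against 105 CPM at their nearest, and the log2 fold change was −0.52 ± 0.134 (SE, adjusted p = 0.221). KIF18B (gene ID 490932; chromosome 9, 18541632 to 18562341), which shortens astral microtubules, had 43.8, 39.3 and 34.3 CPM under gas against 27.3, 30.7 and 29.4 CPM under dCAMP, for a log2 fold change of −0.43 ± 0.123 (SE, adjusted p = 0.221). KIF20A (gene ID 474693; chromosome 11, 25826140 to 25834220), a motor that brings the chromosomal passenger complex and PLK1 to the midzone, differed least of these genes. It had 81.8, 84.2 and 82.4 CPM under gas against 67.8, 74.9 and 64.0 CPM under dCAMP, for a log2 fold change of −0.27 ± 0.0924 (SE, adjusted p = 0.224). The highest gas value was 1.03 to 1.30 times the lowest in these genes. In KIF22, KIFC1 and KIF18B the gas values fell from gas 1 to gas 3, so that gas 3 lay nearest to the dCAMP values. The median of the shortest genes fell in the same order, whereas KIF20A did not follow it. Leaving out any 1 library kept all 4 estimates below 0. Without gas 3 the adjusted p was 0.0205 for KIF22, 0.0222 for KIFC1, 0.0224 for KIF18B and 0.0508 for KIF20A. That fit called 18.1% of all genes lower at an adjusted p under 0.05. Without gas 1 the adjusted p-values were 0.196, 0.199, 0.201 and 0.208, and over the fits without 1 library they reached 0.502. In bulk RNA, fewer cells in mitosis and less of these mRNAs per cell cannot be told apart, and the part of the library differences in these values was not tested.

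A further 4 mitotic kinesins had estimates above 0 whose size depended on which gas library was left out. KIF11 (gene ID 477769; chromosome 28, 6982296 to 7034380), the motor that slides opposed spindle microtubules apart, had 25.2, 98.9 and 179.8 CPM in gas 1, 2 and 3 against 161, 189.6 and 173 CPM under dCAMP. Gas 3 lay within the dCAMP range and gas 1 lay 7.13-fold below gas 3, so the groups overlapped and the log2 fold change of 0.78 ± 0.615 (SE, adjusted p = 0.406) was 0.31 without gas 1 and 1.45 without gas 3. KIF20B (gene ID 477761; chromosome 28, 4589691 to 4670335), which acts in the last steps of cell separation, had 11.99, 45.3 and 84.4 CPM under gas against 80.1, 91.6 and 87.7 CPM under dCAMP. KIF14, a midbody motor, had 7.04, 20.9 and 32.3 CPM under gas against 30.6, 34.01 and 33.1 CPM under dCAMP. KIF18A, which damps the oscillations of aligned chromosomes, had 6.11, 18.1 and 26.8 CPM under gas against 25.6, 25.8 and 26.9 CPM under dCAMP. In each of the 4 genes gas 1 was lowest and gas 2 lay between gas 1 and gas 3, and the dCAMP libraries differed among themselves by no more than 1.18-fold. The log2 fold changes were 0.87 for KIF20B, 0.70 for KIF14 and 0.62 for KIF18A, with standard errors of 0.611, 0.491 and 0.476 and adjusted p-values of 0.367, 0.369 and 0.401. Without gas 1 they were 0.40, 0.28 and 0.20, and without gas 3 they were 1.55, 1.18 and 1.06. The low share of mitochondrial counts in gas 1 moved with these values, and its part in them was not tested.

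In the other 4 mitotic kinesins the gas and dCAMP values overlapped. KIF23, the motor of centralspindlin that organizes the midzone, had 109, 151 and 171 CPM under gas against 141, 161 and 136 CPM under dCAMP, for a log2 fold change of 0.021 ± 0.176 (SE). KIF4A, which sets the length of midzone microtubules, had 35.9, 41.8 and 43.8 CPM under gas against 36.5, 45.9 and 38.4 CPM under dCAMP, for a log2 fold change of −0.0081 ± 0.134 (SE). KIF15, a spindle motor that can stand in for KIF11, had 54.0, 77.0 and 89.3 CPM under gas against 71.1, 81.6 and 78.4 CPM under dCAMP. Its log2 fold change was 0.069 ± 0.190 (SE), and −0.13 without gas 1. KIF2C, a depolymerase at the centromere that corrects faulty attachments, had 30.4, 31.1 and 26.8 CPM under gas against 22.03, 26.9 and 26.3 CPM under dCAMP, for a log2 fold change of −0.23 ± 0.124 (SE, adjusted p = 0.288). For KIF23, KIF4A and KIF15 the standard error was larger than the estimate, and their adjusted p-values were 0.817 to 0.971.

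**Figure D2:**
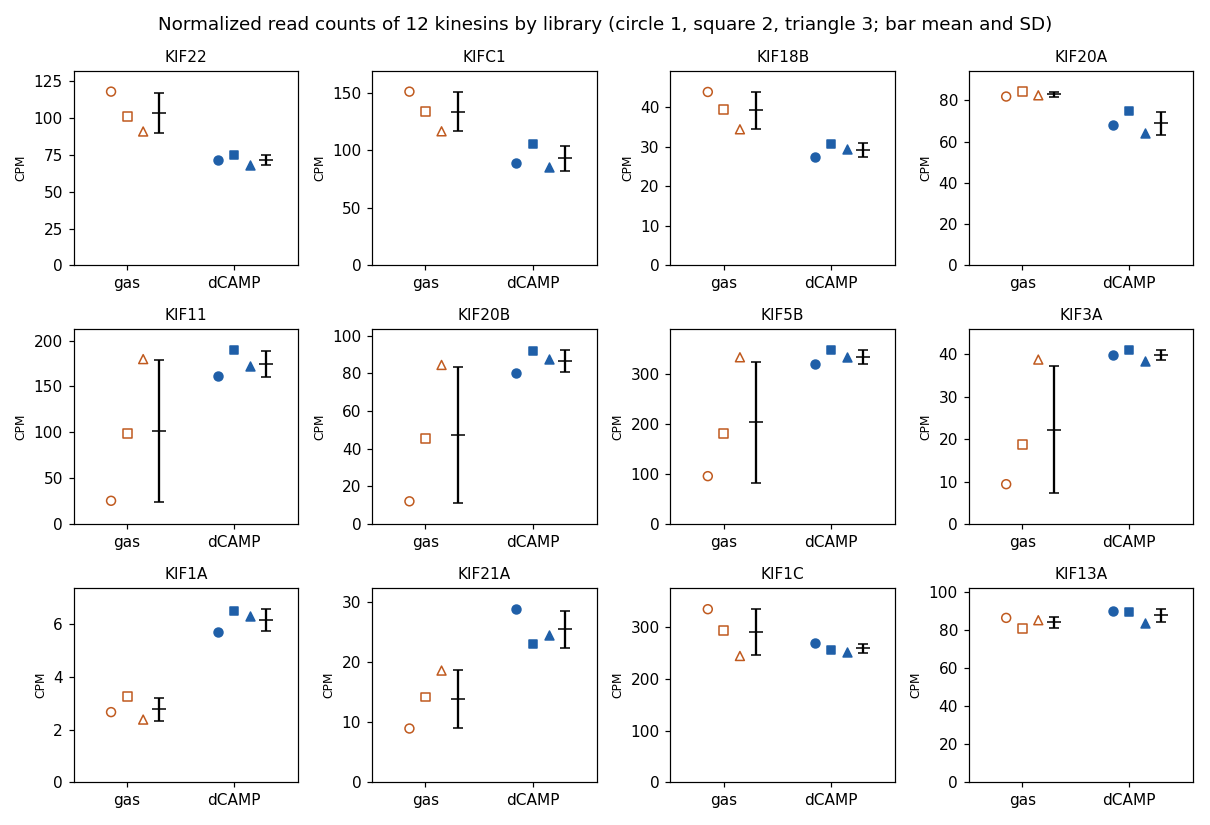
CPM of 12 kinesins in each library (y axis from 0; circle, square and triangle for libraries 1, 2 and 3; open for gas and filled for dCAMP), with the mean and SD of each group. The top row shows the 4 mitotic kinesins whose groups do not overlap, the middle row 4 genes in which gas 1 is lowest and gas 3 is at the dCAMP level, and the bottom row KIF1A and KIF21A above the gas range, KIF1C with gas 3 below the dCAMP range and KIF13A with overlapping groups.

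Members of one subfamily could thus lie on opposite sides of 0. In the kinesin-8 subfamily KIF18B was lower after dCAMP while KIF18A had an estimate of 0.62, and in the kinesin-6 subfamily KIF20A was lower while KIF20B had an estimate of 0.87. In kinesin-13, KIF2C had an estimate of −0.23 and KIF2A one of 0.60. In kinesin-4, KIF21A had an estimate of 0.87 and KIF21B, which had 6 to 22 counts, one of −0.024, and in kinesin-3, KIF1A had an estimate of 1.14 and KIF1C one of −0.17. The gas libraries spread 4.38-fold for KIF18A against 1.27-fold for KIF18B, 7.04-fold for KIF20B against 1.03-fold for KIF20A, and 3.72-fold for KIF2A against 1.16-fold for KIF2C. They spread 2.08-fold for KIF21A against 4.20-fold for KIF21B, whose range rested on 6 to 22 counts, and 1.37-fold for both KIF1A and KIF1C. These pairs are examples chosen after their values were seen. The differences within pairs were not tested.

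The list of 21 genes that work with these motors in mitosis showed both patterns. None had an adjusted p under 0.05, none was higher with an unadjusted p under 0.05, and 5 were lower (23.8%, against 13.9% of all genes), namely INCENP, CDCA8, BIRC5, AURKB and PLK1. The first 4 are the subunits of the chromosomal passenger complex, the kinase complex that KIF20A carries to the midzone, and PLK1 is the mitotic kinase that docks on KIF20A. CDCA8 had 166, 157 and 142 CPM under gas against 106, 115 and 104 CPM under dCAMP, for a log2 fold change of −0.52 ± 0.0946 (SE, adjusted p = 0.221). INCENP had 288, 265 and 228 CPM under gas against 195, 192 and 188 CPM under dCAMP, for a log2 fold change of −0.44 ± 0.104 (SE, adjusted p = 0.221). PLK1 had 238, 204 and 184 CPM under gas against 153, 161 and 152 CPM under dCAMP, for a log2 fold change of −0.42 ± 0.111 (SE, adjusted p = 0.221). In all 5 genes (23.8%, against 20.9% of all genes tested) every dCAMP library lay below every gas library, a share close to that of all genes. ANLN, the most abundant gene of the list and a scaffold of the contractile ring, had 235, 348 and 478 CPM under gas against 452, 519 and 475 CPM under dCAMP, with gas 3 in the dCAMP range. CENPE, a kinesin of the kinetochore whose symbol lies outside the KIF series, was looked up for that reason and not by the rule for naming genes. It had 11.1, 29.9 and 66.9 CPM under gas against 64.5, 70.2 and 64.3 CPM under dCAMP, the same order of gas libraries as KIF11. The median log2 fold change of the 21 genes was 0.091, against 0.027 over all genes tested. It was −0.098 without gas 1 (all genes 0.009), 0.25 without gas 3 (all genes −0.028) and −0.017 with the correction for gene length, so its sign depended on the library left out and on that correction.

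Among the transport kinesins KIF1A stood out. KIF1A (gene ID 486202; chromosome 25, 50855703 to 50945014 of CanFam3.1, a locus that also overlaps LOC102152258) carries synaptic vesicle precursors and dense-core vesicles in neurons. It had 123, 171 and 126 counts in gas 1, 2 and 3 against 263, 278 and 284 counts in dCAMP 1, 2 and 3. In CPM these were 2.66, 3.25 and 2.38 under gas against 5.68, 6.49 and 6.29 under dCAMP, so that the lowest dCAMP library lay well above the highest gas library and no single gas library set the difference. The means were 2.76 ± 0.445 CPM (SD, n = 3) under gas against 6.15 ± 0.422 (SD, n = 3) under dCAMP, a log2 fold change of 1.14 ± 0.157 (SE, adjusted p = 0.221 from edgeR), or 2.21-fold. Of the 35 tested kinesins it had the largest estimate, and it alone reached both 2-fold and an unadjusted p under 0.05, the thresholds in the study's methods, which 1.09% of all genes tested met and 0.959% met as higher. Both were also met whichever library was left out, at estimates of 1.001 to 1.25. With a correction for gene length it was 1.81-fold, short of 2-fold, with voom 1.89-fold, and on the log2 of FPKM plus 1 it was 1.26-fold, at a low level (0.268 ± 0.0413 FPKM in the gas control and 0.603 ± 0.0411 after dCAMP, SD, n = 3 each). Most counts were assigned to a transcript of 9015 bases, with 123, 122 and 118 counts under gas against 136, 245 and 147 counts under dCAMP. A transcript of 8745 bases had 0, 0 and 8 counts under gas against 122, 7 and 134 counts under dCAMP, so the split between the 2 transcripts differed among the dCAMP libraries while the gene totals lay close together.

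Markers of neurons were read beside KIF1A. Of 8 neuron markers, RBFOX3, STMN2 and NEFM were listed at 0 in every library. MAP2, a microtubule-associated protein, made up 99.6% of the summed CPM of the list and was the only marker to pass the filter on low counts. It had 38.8, 44.0 and 54.1 CPM under gas against 66.4, 66.1 and 68.8 CPM under dCAMP, for a log2 fold change of 0.56 ± 0.137 (SE, adjusted p = 0.221). The other 4 markers were too low to be tested and are named after their values were seen. SNAP25 had 0, 5 and 6 counts under gas against 14, 6 and 12 counts under dCAMP, without overlap in CPM. TUBB3 had 3, 2 and 5 counts under gas against 0, 3 and 8 counts under dCAMP, while SYT1 had 3 counts in gas 1, NEFL had 2 in gas 2, and both were at 0 in all other libraries. The summed level of the list was 39.0, 44.2 and 54.3 CPM under gas against 66.7, 66.3 and 69.3 CPM under dCAMP. KIF5A, the neuronal form of conventional kinesin, had 3.85, 3.74 and 3.83 CPM under gas against 4.01, 3.34 and 3.90 CPM under dCAMP, for a log2 fold change of −0.021 ± 0.127 (SE), and KIF5C had 0 to 10 counts under gas against 4 to 19 under dCAMP.

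KIF5B and KIF3A shared the pattern of KIF11. KIF5B (gene ID 100855651; chromosome 2, 14835906 to 14880896, overlapping LOC608816), the ubiquitous heavy chain of conventional kinesin, had 95.4, 180.1 and 333 CPM in gas 1, 2 and 3 against 320.4, 347 and 333 CPM in dCAMP 1, 2 and 3. KIF3A (gene ID 474675; chromosome 11, 20988516 to 21044151), a motor subunit of the heterotrimeric kinesin-2 that serves cilia, had 9.38, 18.7 and 38.8 CPM under gas against 40.0, 40.9 and 38.5 CPM under dCAMP. Gas 3 was within the dCAMP range for both genes, while gas 1 was at 0.286 and 0.236 of the dCAMP mean. The log2 fold change was 0.72 ± 0.414 (SE, adjusted p = 0.308) for KIF5B and 0.83 ± 0.471 (SE, adjusted p = 0.303) for KIF3A. Without gas 1 the estimates were 0.37 and 0.46, with adjusted p-values of 0.337 and 0.320 from edgeR. Without gas 3 they were 1.23 and 1.46 with adjusted p-values of 0.0258 and 0.0236, in a fit that called 15.0% of all genes higher.

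The remaining transport kinesins varied little among the gas libraries. KIF3B, the partner of KIF3A, had 71.3, 70.0 and 69.6 CPM under gas against 74.6, 65.6 and 67.7 CPM under dCAMP, for a log2 fold change of −0.022 ± 0.0887 (SE). KIF3C, an alternative partner, had 13.6, 13.4 and 13.8 CPM under gas against 16.1, 14.4 and 15.4 CPM under dCAMP. Its groups did not overlap, but the difference was small, with a log2 fold change of 0.17 ± 0.0987 (SE, adjusted p = 0.316). With the correction for gene length that estimate turned to −0.034. The level of KIF3A spread 4.14-fold among the gas libraries, and those of KIF3B and KIF3C spread 1.02-fold and 1.03-fold. KIFAP3, the non-motor subunit of the same complex, is named here after its values were seen. Its level spread 5.47-fold among the gas libraries, with 6.57, 26.6 and 35.9 CPM under gas against 38.6, 36.2 and 39.5 CPM under dCAMP. The log2 fold change of KIFAP3 was 0.73 (standard error 0.546), and it was 0.27 without gas 1 and 1.16 without gas 3. KIF1C (gene ID 489453; chromosome 5, 31613335 to 31635313, overlapping CAMTA2) had 335, 293 and 245 CPM under gas against 269.5, 256 and 252 CPM under dCAMP, for a log2 fold change of −0.17 ± 0.125 (SE, adjusted p = 0.389), with the dCAMP libraries inside the gas range. That estimate was −0.073 without gas 1 and −0.32 without gas 3. KIF1B, a motor for mitochondria and vesicles, had 84.3, 77.0 and 96.8 CPM under gas against 97.5, 95.1 and 93.0 CPM under dCAMP. These ranges touched, with gas 3 inside the dCAMP range. KIF13A, which moves recycling endosomes, had 86.3, 80.9 and 85.1 CPM under gas against 89.8, 89.7 and 83.6 CPM under dCAMP. KIF16B, which moves early endosomes, had 43.0, 48.1 and 50.1 CPM under gas against 48.8, 51.5 and 55.2 CPM under dCAMP. KIF13B had 12.4, 14.9 and 14.6 CPM under gas against 17.7, 13.6 and 16.6 CPM under dCAMP, and KIF17, a ciliary and dendritic motor, had 10 to 13 counts in gas and 4 to 13 in dCAMP libraries. The log2 fold changes of KIF1B, KIF13A, KIF16B, KIF13B and KIF17 were 0.15, 0.060, 0.14, 0.19 and −0.088, with adjusted p-values of 0.384 to 0.892 and overlapping groups.

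**Figure D3:**
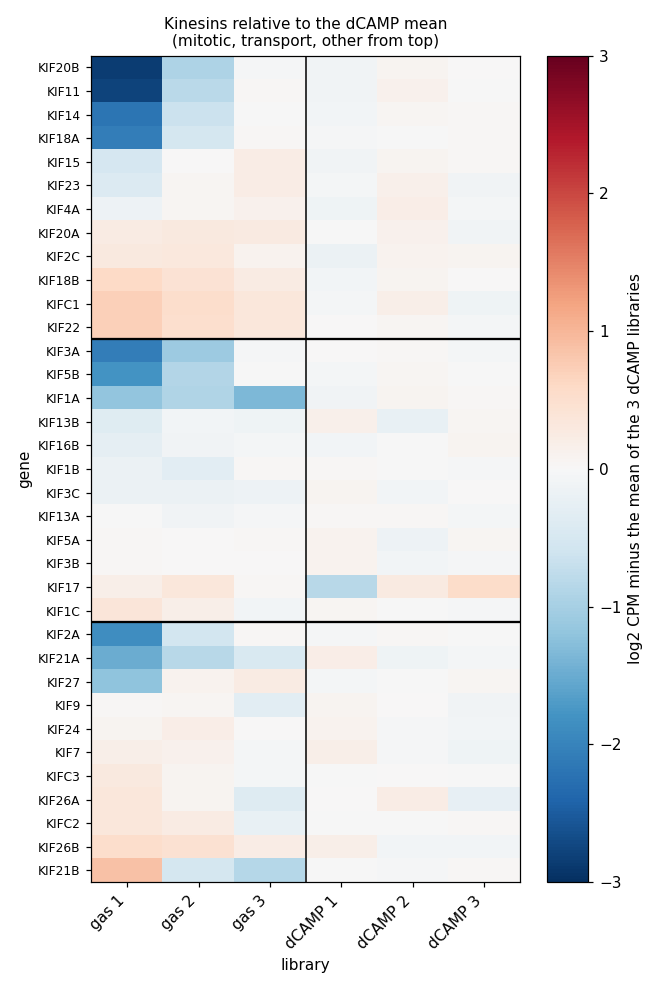
Log2 CPM of the 35 tested kinesins minus the mean of the 3 dCAMP libraries (colour; blue lower, red higher), with the mitotic, transport and other kinesins from top to bottom. KIF20B, KIF11, KIF14, KIF18A, KIF3A, KIF5B and KIF2A are lowest in gas 1 and near 0 in gas 3, while KIF22, KIFC1, KIF18B and KIF20A are above 0 in all 3 gas libraries and KIF1A is below 0 in all 3.

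Cofactors of the transport kinesins were examined as a list of 13 genes, none of which had an adjusted p under 0.05. KLC2, a light chain that links conventional kinesin to cargo, was the only one with an unadjusted p under 0.05 (7.69% of the list as lower, against 13.9% of all genes tested), and had 72.2, 65.3 and 55.4 CPM under gas against 44.9, 50.6 and 52.8 CPM under dCAMP, for a log2 fold change of −0.38 ± 0.130 (SE, adjusted p = 0.224). KLC1, the most abundant gene of the list, had 218, 214 and 202 CPM under gas against 193, 195 and 194 CPM under dCAMP. Both were lower in every dCAMP library than in any gas library, as were 20.9% of all genes tested. The other light chains overlapped between the groups and are named here after their values were seen. KLC3 had 32.5, 28.3 and 19.5 CPM under gas against 26.8, 25.2 and 24.2 CPM under dCAMP, and KLC4 had 22.01, 17.8 and 15.6 CPM under gas against 16.1, 15.7 and 16.4 CPM under dCAMP. TRAK2, an adaptor between kinesin and mitochondria, had 15.4, 19.9 and 26.2 CPM under gas against 27.8, 28.9 and 28.3 CPM under dCAMP. Its log2 fold change was 0.47 (standard error 0.196), and 0.28 without gas 1 and 0.64 without gas 3. RHOT2, a receptor for these motors on mitochondria, had 56.9, 51.8 and 41.9 CPM under gas against 42.8, 42.9 and 39.3 CPM under dCAMP. Its log2 fold change was −0.27 (standard error 0.136), and −0.19 without gas 1 and −0.43 without gas 3. TRAK2 and KIFAP3 were higher in every dCAMP library than in any gas library, so that 2 genes of the list were separate in each direction (15.4%, against 19.0% of all genes as higher and 20.9% as lower). The median log2 fold change of the list was −0.12, with 4 genes above and 9 below 0. It was −0.0081 without gas 1, −0.23 without gas 3 and −0.24 with the correction for gene length.

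Dynein, the minus-end motor that works against the kinesins, and its activator dynactin were represented by 16 genes with a median log2 fold change of −0.001. None had an adjusted p under 0.05, while 2 were higher (12.5%, against 6.81% of all genes) and 1 lower (6.25%, against 13.9%) with an unadjusted p under 0.05. DYNC1I2, an intermediate chain, had 108, 142 and 166 CPM under gas against 179, 187 and 183 CPM under dCAMP. Its log2 fold change was 0.40 ± 0.160 (SE, adjusted p = 0.239), and 0.23 without gas 1 and 0.50 without gas 3. DYNC1LI1, a light intermediate chain, had 33.2, 40.2 and 64.4 CPM under gas against 63.1, 72.1 and 75.3 CPM under dCAMP, with gas 3 above dCAMP 1. DCTN2, the dynamitin subunit, had 153, 152 and 132 CPM under gas against 121, 124 and 126 CPM under dCAMP, for a log2 fold change of −0.24 ± 0.0898 (SE, adjusted p = 0.234). The heavy chain DYNC1H1, the most abundant gene of the list, had 457, 416 and 441 CPM under gas against 444, 366 and 376 CPM under dCAMP, with overlapping groups. DYNLT3, a light chain named after its values were seen, had the largest estimate of the list. It had 6.57, 15.7 and 41.6 CPM under gas against 49.7, 48.6 and 56.2 CPM under dCAMP, for a log2 fold change of 1.27 ± 0.609 (SE, adjusted p = 0.264), which was 0.84 without gas 1 and 2.16 without gas 3. In the list 4 genes were higher (25.0%, against 19.0% of all genes) and 2 lower (12.5%, against 20.9%) with no overlap between the groups.

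Of the other kinesins, KIF21A was higher in every dCAMP library than in any gas library. KIF21A (gene ID 100683402; chromosome 27, 14205980 to 14328281, overlapping a tRNA gene), which halts microtubule growth at the cell cortex, had 8.97, 14.2 and 18.6 CPM in gas 1, 2 and 3 against 28.9, 23.0 and 24.5 CPM in dCAMP 1, 2 and 3. Gas 1 was the lowest of the 6 libraries, but gas 3 also stayed below the dCAMP range, unlike in KIF11 or KIF5B. The log2 fold change was 0.87 ± 0.267 (SE, adjusted p = 0.221), and 0.62 without gas 1. KIF2A (gene ID 478071; chromosome 2, 48642961 to 48715605) had 32.1, 80.1 and 119 CPM under gas against 115, 119.6 and 117 CPM under dCAMP, for a log2 fold change of 0.60 ± 0.428 (SE, adjusted p = 0.372) that was 0.22 without gas 1 and 1.02 without gas 3. KIF26B, named after its values were seen because it is 1 of the 5 lower kinesins, had 3.37, 3.21 and 2.75 CPM under gas against 2.65, 2.19 and 2.19 CPM under dCAMP, for a log2 fold change of −0.40 ± 0.155 (SE, adjusted p = 0.235). Its groups did not overlap, and the estimate was −0.72 with the correction for gene length and −0.72 to −0.062 over all alternatives. The 8 others tested, KIF7, KIF9, KIF21B, KIF24, KIF26A, KIF27, KIFC2 and KIFC3, had log2 fold changes of −0.15 to 0.16 and adjusted p-values of 0.494 to 0.978, and their groups overlapped.

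**Figure D4:**
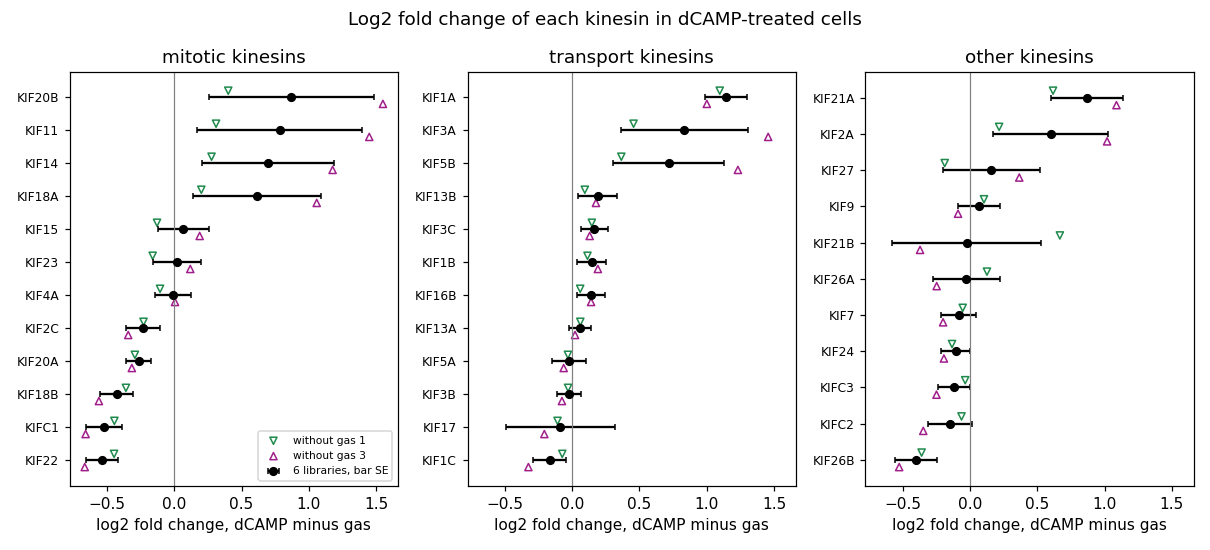
Log2 fold change (dCAMP minus gas, x axis) of each tested kinesin with its standard error over 6 libraries (black), and the estimates without gas 1 (downward triangles) and without gas 3 (upward triangles). From the fit without gas 1 to that without gas 3, KIF1A goes from 1.10 to 1.001 and KIF20A from −0.29 to −0.31. KIF22 goes from −0.45 to −0.66, KIFC1 from −0.44 to −0.66 and KIF18B from −0.36 to −0.56, whereas KIF20B goes from 0.40 to 1.55 and KIF11 from 0.31 to 1.45.

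The mitotic and transport kinesins were then set side by side. The median log2 fold change was 0.006 for the 12 mitotic kinesins (6 above and 6 below 0) and 0.14 for the 12 tested transport kinesins (8 above and 4 below), against 0.027 for all genes tested. The mitotic list spanned −0.53 to 0.87 and the transport list −0.17 to 1.14, so each median hid members on both sides of 0. With each library's trend on gene length removed, the transport median turned to −0.10 and the mitotic median was −0.14, so the sign of the transport list rested on this choice. The mitotic median lay near 0 and was −0.14 without gas 1, −0.11 without dCAMP 2 and 0.062 without gas 3. The transport median was 0.078 without gas 1, 0.086 without gas 2 and 0.14 without gas 3. Without gas 3, where 15.0% of genes were higher and 18.1% lower with an adjusted p under 0.05, 9 of the 37 kinesins tested in that fit passed: KIF1A, KIF3A, KIF5B and KIF21A as higher, and KIF18B, KIF22, KIFC1, KIF1C and KIFC2 as lower. That fit kept 2 gas libraries. Without gas 1 no kinesin passed, against 0.00667% of genes as higher and 0.00% as lower. Relative to the dCAMP mean, the median log2 ratio of the mitotic kinesins was −0.29, 0.058 and 0.17 in gas libraries 1, 2 and 3, and that of the transport kinesins was −0.17, −0.11 and −0.039.

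The spread among libraries was counted for kinesins and for all genes. The highest gas CPM was at least 2 times the lowest in 10 of the 35 kinesins (28.6%), against 24.7% of all genes tested. Among the dCAMP libraries this held for 1 kinesin, KIF17, which had 4 to 13 counts, against 5.87% of all genes. The 10 kinesins were KIF11, KIF14, KIF18A and KIF20B of the mitotic group, KIF3A and KIF5B of the transport group, and KIF2A, KIF21A, KIF21B and KIF27 of the others. Gas 1 had less than 0.5 times the dCAMP mean in 10 kinesins (28.6%, against 21.0% of all genes tested), a set that held KIF1A in place of KIF21B and otherwise the same genes. Their leading transcripts were 3272 to 9015 bases long (median 5767), and those of the other 25 were 2114 to 13560 bases long (median 4667). The part of transcript length in these values was not tested.

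Markers of fibroblasts, melanocytes and immune cells were low. Of 8 fibroblast markers PDGFRB, DCN and LUM were listed at 0 in every library, and the list summed to 6.60 to 7.02 CPM under gas against 6.51 to 7.10 under dCAMP, with COL3A1 as the most abundant. COL1A1 had 1.40, 1.58 and 1.04 CPM under gas against 1.01, 0.863 and 0.575 CPM under dCAMP, and COL1A2 had 0.389, 0.399 and 0.358 CPM under gas against 0.388, 0.630 and 0.708 CPM under dCAMP. Of 6 melanocyte markers TYR and DCT were listed at 0, and the list summed to 7.12 to 9.12 CPM under gas against 8.86 to 11.4 under dCAMP. MITF made up 84.0% of that sum, while MLANA had 4, 0 and 0 counts under gas against 13, 16 and 11 counts under dCAMP. PMEL had 0.756, 0.456 and 0.735 CPM under gas against 0.324, 0.303 and 0.598 CPM under dCAMP. SOX10, named after its values were seen, had 63, 73 and 0 counts under gas against 0, 0 and 72 counts under dCAMP. Of 6 immune cell markers PTPRC, CD3E and CSF1R were listed at 0, and the sum, mostly CD14, was 0.454 to 1.38 CPM under gas against 0.863 to 1.81 under dCAMP. Keratinocyte markers differed in both directions: KRT14 and KRT5 had log2 fold changes of −0.30 and −0.21, and DSG3 and ITGA6 of 0.52 and 0.35, with adjusted p-values of 0.221 to 0.240 and no overlap between the groups. Whether these markers have a part in the kinesin values was not tested.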

How the data were processed

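Libraries were stranded mRNA libraries. Per the labels and the study's methods, reads were cleaned of adapters, contaminants and duplicates (FastQC 0.11.7, Trimmomatic 0.38), mapped to CanFam3.1 (HISAT2 2.1.0) and assigned to known transcripts (StringTie 2.1.3b). The deposited read counts are whole numbers without normalization for 35993 genes and 87504 transcripts. FPKM, in which the authors scaled counts by transcript length and library depth, served for levels, and the deposited TPM columns were not used here. How reads on overlapping genes were counted is not given in the sources used here; 14 of the 41 kinesin loci overlap another listed gene. Coordinates come from that transcript table, which gives no strand.

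Counts were analysed with R 4.3.3 and edgeR 4.0.16 (TMM, filterByExpr, prior count 2, quasi-likelihood test, Benjamini-Hochberg adjustment over all genes tested). The standard error (SE) is the absolute log2 fold change over the square root of F. limma 3.58.1 and DESeq2 1.42.0 served as alternatives, with other scalings and filters, a replicate block, a lowess correction for gene length (span 0.3) and leaving out each library. The fits were tested on simulated data. Named were all tested mitotic and transport kinesins, the 5 members with the largest absolute log2 fold change, the member with the highest FPKM in each role, and from every other list the 3 genes with the smallest p and the most abundant gene; further genes behind small counts were named after their values were seen. The members and lists were chosen with earlier results of these data known. KIFBP was found under its older symbol KIF1BP.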

Additional observations from a re-analysis of the deposited data

How the results depend on the processing

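For every result here the cause was not tested. The number of genes with an adjusted p under 0.05 (0) was 295 with DESeq2, 8944 with voom and sample quality weights, 3 on the log2 of FPKM plus 0.1, and 0 to 4953 in the fits without 1 library, with 1 without gas 1 and 4953 without gas 3. Genes that reached 2-fold at an unadjusted p under 0.05 (161) numbered 369 with DESeq2, 279 without a filter, 1010 with voom, 373 on the log2 of FPKM plus 0.1, and 135 to 1523 without 1 library. Kinesins with an adjusted p under 0.05 (0) numbered 2 with DESeq2 (1.45% of all genes), 20 of 35 with voom (60.8% of all genes), and 0 to 9 without 1 library (0.00% to 33.1%). Higher kinesins with an unadjusted p under 0.05 (2) numbered 13 of 35 with voom (34.5% of all genes) and 1 to 8 without 1 library (2.16% to 23.8%), and lower ones (5) 9 with voom (30.4%) and 3 to 9 without 1 library (4.70% to 25.5%).

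The libraries of both groups carry the numbers 1 to 3. The deviations from the group means correlated by 0.13, 0.024 and 0.048 across genes for the same-numbered libraries 1, 2 and 3. Pairs with different numbers ran from −0.14 (gas 3 with dCAMP 1) to 0.087 (gas 3 with dCAMP 2). The labels give only a number, and these values cannot show whether same-numbered libraries were handled together. With the replicate block, 435 genes reached both thresholds, or 475 together with the length correction, and 3 kinesins were lower (9.31% of all genes).

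The median of the other kinesins (−0.027) was −0.25 with the length correction, −0.21 with that correction and the block, −0.12 with upper-quartile factors, and −0.20 to −0.032 without 1 library. The transport median (0.14) was −0.10 with the length correction, −0.098 with that correction and the block, 0.060 with upper-quartile factors, and 0.078 to 0.14 without 1 library. Some small estimates turned sign, the largest of them being 0.19 for KIF13B. With the length correction they were −0.19 for KIF13A, −0.047 for KIF13B, −0.10 for KIF15, −0.068 for KIF16B, −0.13 for KIF1B, −0.076 for KIF23 and −0.034 for KIF3C, and with the block added −0.18, −0.051, −0.094, −0.069, −0.13, −0.067 and −0.030. Upper-quartile factors gave −0.028 for KIF13A, −0.0028 for KIF15 and −0.052 for KIF23, and voom gave −0.012 for KIF15, −0.073 for KIF23 and 0.022 for KIF5A. Without 1 library the ranges were −0.13 to 0.19 for KIF15, −0.40 to 0.22 for KIF17, −0.16 to 0.12 for KIF23, −0.14 to 0.058 for KIF4A and −0.081 to 0.026 for KIF5A. KIF1A, KIF3A, KIF5B, KIF11, KIF14, KIF18A, KIF18B, KIF20A, KIF20B, KIF21A, KIF22, KIFC1, KIF1C, KIF2C and KIF3B kept their sign in all 17 alternatives.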

Other observations

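The transcript table adds detail for members with more than 1 transcript; StringTie's estimates can move reads between transcripts of a gene, so these are values and no test was made. KIFC1 was listed with 2 transcripts. Its transcript of 2207 bases had 120.3, 105 and 83.9 CPM under gas against 65.3, 73.7 and 49.9 CPM under dCAMP, and was lower in every dCAMP library. Its transcript of 3065 bases had 30.9, 28.7 and 32.7 CPM under gas against 23.6, 31.6 and 35.4 CPM under dCAMP, with overlapping groups. For KIF2C the leading transcript of 2319 bases had 26.05, 24.9 and 22.5 CPM under gas against 16.8, 23.3 and 11.5 CPM under dCAMP, and the groups overlapped, as they did for the whole gene. KIF2A, listed with 6 transcripts, had 578 counts (not scaled to library size) for its transcript of 2524 bases in gas 1 and 0 in the other 5 libraries, and 503 counts for its transcript of 4161 bases in gas 1 against 3064 to 5495 in the others. The transcript with the largest share of KIF2A counts was therefore another one in gas 1 than in the other libraries. KIF11, KIF14, KIF5B, KIF18B, KIF20A and KIF22 were each listed with 1 transcript, so their values do not depend on the split between transcripts.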
